A study of Mus musculus with 16 samples.

Results

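The Hox genes of paralog groups 9 and 10 were followed by RNA-sequencing in whole mouse embryos at embryonic day (E) 9.5. They were chosen by name: Hoxa9, Hoxb9, Hoxc9, Hoxd9, Hoxa10, Hoxc10 and Hoxd10, which make up 7 of the 26411 genes in the count files. The study asked whether extra KAT6B, a histone acetyltransferase, can stand in for its paralogue KAT6A, and each of 4 genotypes was represented by 4 embryos. Kat6a+/+Kat6b+/+ embryos were wild type, and Kat6a-/-Kat6b+/+ embryos were homozygous for a Kat6a allele that lacks internal exons. Kat6a+/+Tg(Kat6b) embryos carried a Kat6b transgene on both normal Kat6a alleles, and Kat6a-/-Tg(Kat6b) embryos carried the same transgene on the Kat6a null background. The transgene is a bacterial artificial chromosome that descends from 1 founder, so all transgenic embryos share its insertion site. All embryos were on a mixed FVB and BALB/c background, and each genotype had 2 female and 2 male embryos. The Kat6a-/-Tg(Kat6b) embryos came from 2 litters with no other genotype, so for them genotype and litter cannot be told apart. The wild-type embryos came from the litters of the Kat6a-/-Kat6b+/+ embryos, these being male, and of the Kat6a+/+Tg(Kat6b) embryos, these being female. Among Kat6a-/-Kat6b+/+ embryos 1 litter gave the females and the other the males. In both of these genotypes sex and litter cannot be told apart.

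Hox genes encode homeodomain transcription factors that give the segments of the body axis their identity. They lie in 4 clusters, HoxA to HoxD, and are switched on in the order in which they lie along the chromosome, so that genes of higher group number act later and further towards the tail. Members of group 9 are known for their roles in the thoracic region, in thoracic motor neurons and in placing the forelimb, while members of group 10 specify the rib-free lumbar vertebrae and take part in hindlimb motor neuron and limb patterning. KAT6A and KAT6B acetylate histone H3, and KAT6A is known as an activator of Hox gene transcription.

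On the GRCm39 build, Hoxa9 and Hoxa10 lie next to each other on the minus strand of chromosome 6, at chr6:52200080-52208069 and chr6:52208164-52217834. Hoxb9 lies on the plus strand at chr11:96162150-96167421. Hoxc10 and Hoxc9 lie on the plus strand at chr15:102875134-102880330 and chr15:102884117-102893531, and Hoxd10 and Hoxd9 on the plus strand at chr2:74522230-74525449 and chr2:74528008-74530552. In the GENCODE annotation, 19.0% of the exonic bases of Hoxa10, 13.3% of those of Hoxc9 and 9.36% of those of Hoxa9 overlap long noncoding RNA genes on the opposite strand. A further 8.11% of the exonic bases of Hoxc10 are shared with a transcript of Hoxc5 on the same strand. For Hoxd10, 5.61% are shared with a long noncoding RNA gene on the same strand. Smaller parts are shared by Hoxa9, 1.52% with Mir196b on the same strand, and by Hoxb9, 1.55% with a long noncoding RNA gene on the opposite strand. The strand setting and the treatment of shared reads are not given in the sources used here, so the counts of these genes may include reads of their neighbours. The exons of Hoxd9 overlap no other annotated gene.

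Hoxa10 had the largest fold change among the 7 genes in the comparison of both Kat6a null genotypes, and its promoters are shown for this reason. RefSeq (build GRCm38.p6) lists a pair of start sites, and the 250 bases before each are printed 5′ to 3′ on the minus strand, with CG dinucleotides in capitals. The first lies at chr6:52234940-52235189 and the second, further upstream, at chr6:52240855-52241104.
Hoxa10, first start: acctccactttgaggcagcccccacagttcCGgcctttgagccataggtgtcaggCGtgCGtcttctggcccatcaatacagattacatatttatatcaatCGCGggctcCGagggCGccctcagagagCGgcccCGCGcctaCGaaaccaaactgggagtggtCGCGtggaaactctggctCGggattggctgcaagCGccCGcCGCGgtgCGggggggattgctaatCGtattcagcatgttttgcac
Hoxa10, upstream start: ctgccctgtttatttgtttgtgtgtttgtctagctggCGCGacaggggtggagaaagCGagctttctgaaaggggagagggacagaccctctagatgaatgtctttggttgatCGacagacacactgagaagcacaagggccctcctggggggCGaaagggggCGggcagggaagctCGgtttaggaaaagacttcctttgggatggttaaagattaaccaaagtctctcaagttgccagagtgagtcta
The window at the first start holds 20 CG dinucleotides and the upstream window 7. Promoters of 4 of the 7 genes were matched, giving 5 windows, from Hoxa9, Hoxd9, Hoxa10 and Hoxd10. Both strands of these windows were searched for TTTATG, letters that CDX and posterior HOX proteins can read, and for TGATTTAT and TGATTGAT, which HOX proteins can read together with cofactors. None of these letter strings occurred in the 5 windows. Among the 32851 promoter windows of the same length, 10.8% hold TTTATG, 0.837% hold TGATTTAT and 0.67% hold TGATTGAT.

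The gene counts of an embryo added up to between 14407277 and 45665680, and the 7 genes had between 91 counts, for Hoxa9, and 5160 counts, for Hoxb9, in single embryos. All 7 genes passed the filter on low counts, which kept 15679 genes. Kat6b mRNA, given in CPM, the count scaled to the size of each library, was at 46.2 ± 2.45 CPM (SD, n = 4) in wild-type and 49.1 ± 2.03 CPM in Kat6a-/-Kat6b+/+ embryos, while Kat6a+/+Tg(Kat6b) embryos had 192 ± 29.7 CPM and Kat6a-/-Tg(Kat6b) embryos 197 ± 4.92 CPM. Counts over the whole Kat6a gene did not fall in Kat6a-/-Kat6b+/+ embryos, with a mean of 202 CPM against 199 CPM in wild type, and such counts do not check an allele that lacks part of the exons. The RNA came from whole embryos, so fewer cells of a type and less RNA per cell cannot be told apart. Each library was made from 1 embryo. In the main fit, p-values measure the spread between embryos that was left after adjustment for 2 surrogate variables. Littermates were treated as independent embryos.

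In wild-type embryos Hoxb9 was by far the most abundant of the 7 mRNAs. Per length, given in RPKM, which is CPM divided by the gene's length in kilobases, it was at 40.6 ± 1.84 (SD, n = 4), which was 48.2% of the summed level of the 7 genes. Hoxc10 followed at 11.5 ± 2.46 RPKM and Hoxd9 at 10.8 ± 0.373 RPKM, and the values of these neighbours overlapped. Hoxc9 was at 6.84 ± 0.865, Hoxd10 at 6.10 ± 0.626 and Hoxa10 at 5.18 ± 0.440 RPKM, and each of these overlapped the next. Hoxa9 was lowest at 3.27 ± 0.446 RPKM, with no overlap with Hoxa10. Hoxb9 stood at the 87.5th percentile of the tested genes and Hoxa9 at the 35.4th. The summed level of the 7 genes was 84.3 ± 2.88 RPKM in wild-type and 71.2 ± 4.56 RPKM in Kat6a-/-Kat6b+/+ embryos. With the transgene, Kat6a+/+Tg(Kat6b) embryos had 94.1 ± 2.05 RPKM and Kat6a-/-Tg(Kat6b) embryos 92.9 ± 2.95 RPKM. Hoxb9 made up 45.4%, 48.7% and 43.0% of the sum in the last 3 genotypes, in this order.

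**Figure D1:**
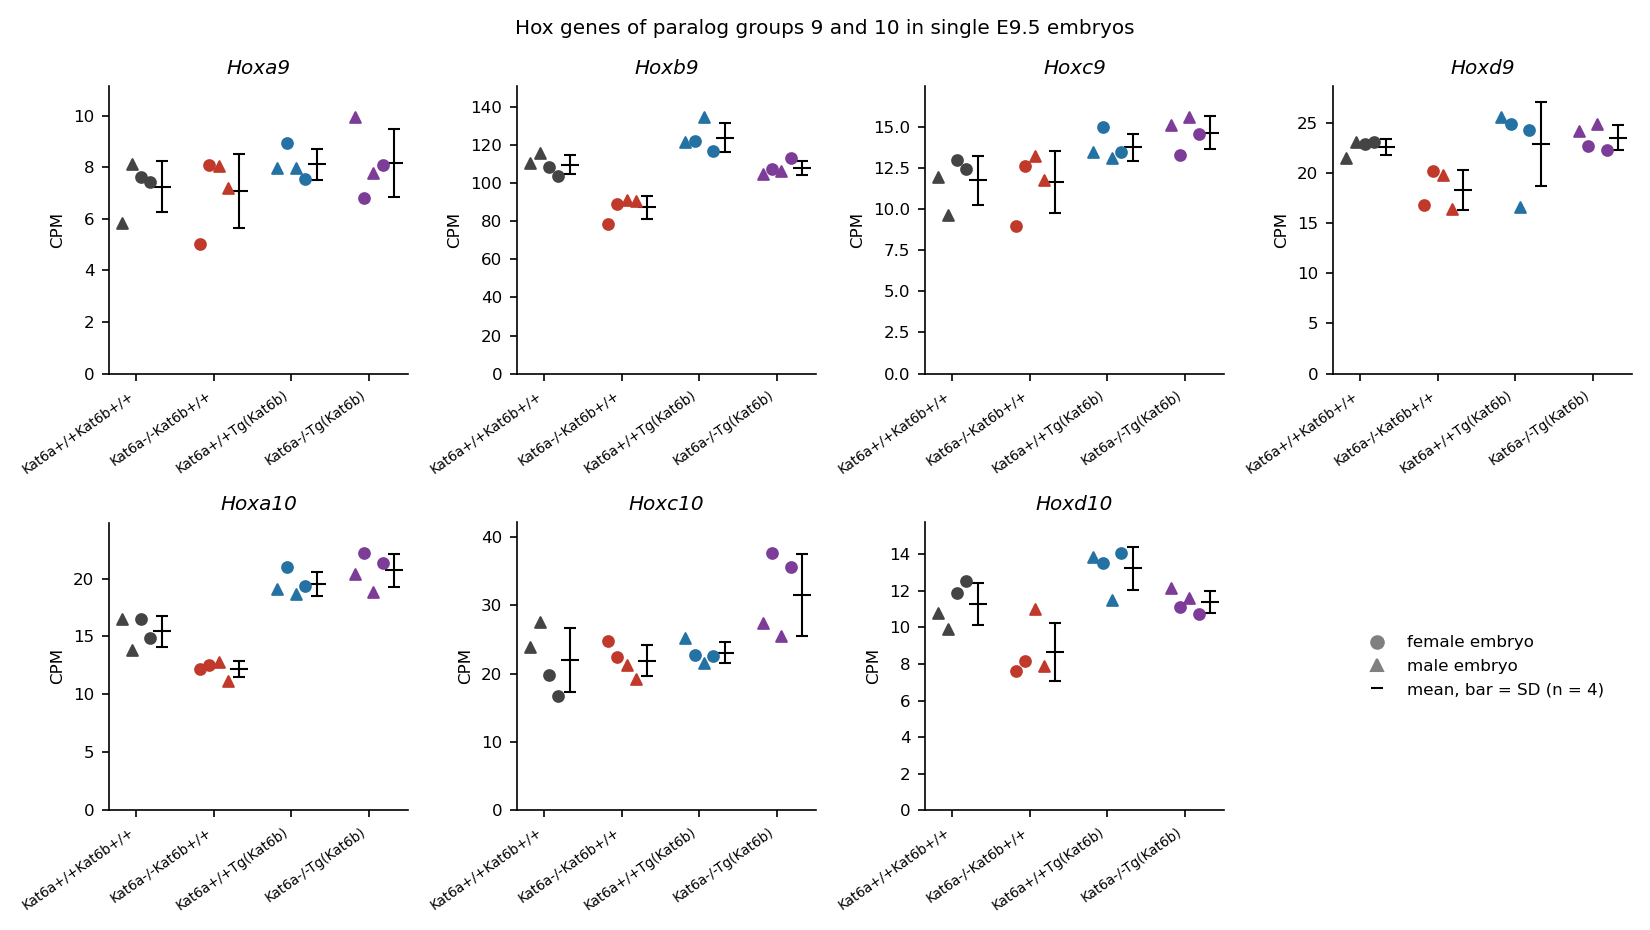
CPM of each of the 7 genes (vertical axis, starting at 0) in every embryo of the 4 genotypes; circles are female and triangles male embryos, in replicate order from left to right, and the bars show the mean and SD of 4 embryos. Hoxa10 was between 11.2 and 12.8 CPM in Kat6a-/-Kat6b+/+ embryos and between 18.9 and 22.2 CPM in Kat6a-/-Tg(Kat6b) embryos.

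Group 9 was led by Hoxb9, which was lower without KAT6A and was higher again with the transgene. In replicate order, its CPM was 111, 116, 109 and 104 in wild-type embryos and 78.4, 89.1, 91.0 and 90.5 in Kat6a-/-Kat6b+/+ embryos. It was 122, 122, 135 and 117 in Kat6a+/+Tg(Kat6b) embryos and 105, 107, 106 and 113 in Kat6a-/-Tg(Kat6b) embryos. Every Kat6a-/-Kat6b+/+ embryo was below every other embryo, every Kat6a+/+Tg(Kat6b) embryo was above every other embryo, and the wild-type and Kat6a-/-Tg(Kat6b) embryos overlapped. Over all tested genes, CPM values without overlap were found for 7.97% between Kat6a-/-Kat6b+/+ and wild-type embryos, for 15.2% between both Kat6a null genotypes, for 4% between Kat6a+/+Tg(Kat6b) and wild-type embryos and for 10.5% between both transgenic genotypes. Hoxb9 fell by 0.33 on the log2 scale in Kat6a-/-Kat6b+/+ relative to wild-type embryos (SE 0.0475, edgeR FDR = 0.000597), a fold of 0.796. It rose by 0.30 in Kat6a-/-Tg(Kat6b) relative to Kat6a-/-Kat6b+/+ embryos (SE 0.0493, FDR = 0.00113). The difference between Kat6a-/-Tg(Kat6b) and wild-type embryos was -0.028 on the log2 scale, with a 95% interval from -0.13 to 0.076. Within litters the mean of the Kat6a-/-Kat6b+/+ embryos differed from the wild-type littermate by -0.40 in one litter and -0.35 in the other on the log2 scale.

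Hoxd9 showed lower values without KAT6A that did not pass the test. Its CPM was 21.5, 23.1, 22.9 and 23.1 in wild-type and 16.8, 20.3, 19.8 and 16.4 in Kat6a-/-Kat6b+/+ embryos. It was 25.6, 24.9, 16.6 and 24.3 in Kat6a+/+Tg(Kat6b) embryos and 24.2, 22.7, 24.9 and 22.3 in Kat6a-/-Tg(Kat6b) embryos. The Kat6a-/-Kat6b+/+ values lay below the wild-type and the Kat6a-/-Tg(Kat6b) values without overlap, and replicate 3 of Kat6a+/+Tg(Kat6b) lay far below its group. The log2 fold change of Hoxd9 was -0.30 (SE 0.114, FDR = 0.204) in Kat6a-/-Kat6b+/+ relative to wild-type embryos and 0.35 (SE 0.116, FDR = 0.0740) in Kat6a-/-Tg(Kat6b) relative to Kat6a-/-Kat6b+/+ embryos. Within litters the Kat6a-/-Kat6b+/+ embryos differed from their wild-type littermate by -0.21 and -0.35. Without replicate 3 of Kat6a+/+Tg(Kat6b), which lies in neither group, these comparisons had an FDR of 0.0287 and 0.00377.

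Hoxc9 was near its wild-type level without KAT6A and higher when the transgene was added. Its CPM was 11.97, 9.61, 12.99 and 12.4 in wild-type and 8.96, 12.6, 13.2 and 11.8 in Kat6a-/-Kat6b+/+ embryos, and these groups overlapped widely. It was 13.5, 14.97, 13.1 and 13.5 in Kat6a+/+Tg(Kat6b) embryos and 15.1, 13.3, 15.6 and 14.6 in Kat6a-/-Tg(Kat6b) embryos, all above the wild-type embryos. Between Kat6a-/-Tg(Kat6b) and wild-type embryos 7.1% of all tested genes had no overlap. Hoxc9 differed by 0.0064 on the log2 scale between Kat6a-/-Kat6b+/+ and wild-type embryos (95% interval from -0.18 to 0.20), and within the 2 litters by -0.15 and 0.38. It rose by 0.41 in Kat6a-/-Tg(Kat6b) relative to Kat6a-/-Kat6b+/+ embryos (SE 0.0922, FDR = 0.0107) and by 0.42 in Kat6a-/-Tg(Kat6b) relative to wild-type embryos (SE 0.0958, FDR = 0.0460). The second of these calls was lost without any one of 10 of the 16 embryos, with an FDR of up to 0.166 without replicate 2 of wild type, and the first was lost without replicate 1 of Kat6a-/-Kat6b+/+ (FDR = 0.0704). Without surrogate variables these fold changes of Hoxc9 were 0.32 (FDR = 0.0822) and 0.31 (FDR = 0.239).

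Hoxa9, the lowest of the 7 mRNAs in wild type, passed edgeR's test in no comparison, nor did it have an unadjusted p below 0.05. Its CPM was 5.83, 8.12, 7.63 and 7.41 in wild-type and 5.03, 8.08, 8.04 and 7.19 in Kat6a-/-Kat6b+/+ embryos. It was 7.97, 8.95, 7.96 and 7.55 in Kat6a+/+Tg(Kat6b) embryos and 9.96, 6.80, 7.77 and 8.10 in Kat6a-/-Tg(Kat6b) embryos. All 4 genotypes overlapped. The log2 fold change of Hoxa9 in Kat6a-/-Kat6b+/+ relative to wild-type embryos was -0.0088, with a 95% interval from -0.30 to 0.28, and in Kat6a-/-Tg(Kat6b) relative to Kat6a-/-Kat6b+/+ embryos it was 0.25, from -0.039 to 0.54. The latter value ran from 0.12 to 0.37 when single embryos were left out, 0.12 being that without replicate 1 of Kat6a-/-Kat6b+/+, and from 0.20 to 0.48 under the other settings tried. With 91 to 369 counts per embryo, the SE of Hoxa9 in the first comparison was 0.139, against 0.0475 for Hoxb9.

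In group 10, Hoxa10 had the largest rise with the transgene. Its CPM was 16.5, 13.9, 16.5 and 14.8 in wild-type and 12.2, 12.6, 12.8 and 11.2 in Kat6a-/-Kat6b+/+ embryos. It was 19.1, 21.0, 18.6 and 19.4 in Kat6a+/+Tg(Kat6b) embryos and 20.4, 22.2, 18.9 and 21.4 in Kat6a-/-Tg(Kat6b) embryos. The Kat6a-/-Kat6b+/+ embryos were lowest, the wild-type embryos lay between, and the transgenic genotypes were highest and overlapped each other alone. Hoxa10 fell by 0.35 on the log2 scale in Kat6a-/-Kat6b+/+ relative to wild-type embryos (SE 0.0756, FDR = 0.0166), a fold of 0.783. It rose by 0.77 in Kat6a-/-Tg(Kat6b) relative to Kat6a-/-Kat6b+/+ embryos (SE 0.0759, FDR = 3.78e-06), a fold of 1.71. In that comparison it ranked 5 among all 15679 tested genes by p-value. It also rose by 0.42 in Kat6a-/-Tg(Kat6b) relative to wild-type embryos (SE 0.0771, FDR = 0.0112), so its level with the transgene was 1.34 times that of wild type. In Kat6a+/+Tg(Kat6b) relative to wild-type embryos the log2 fold change was 0.33 (SE 0.0735), with an FDR of 0.0785. The fall without KAT6A had an FDR of 0.398 with litter as a block, and an FDR of 0.0502 to 0.0687 without replicate 1, 2 or 4 of Kat6a-/-Kat6b+/+ or replicate 3 of wild type. Within litters it was -0.42 and -0.21 on the log2 scale.

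Hoxd10, which lies next to Hoxd9, was also lower without KAT6A, short of the threshold. Its CPM was 10.8, 9.94, 11.9 and 12.6 in wild-type and 7.63, 8.16, 11.0 and 7.86 in Kat6a-/-Kat6b+/+ embryos. It was 13.9, 13.5, 11.5 and 14.1 in Kat6a+/+Tg(Kat6b) embryos and 12.2, 11.1, 11.6 and 10.8 in Kat6a-/-Tg(Kat6b) embryos. Replicate 3 of Kat6a-/-Kat6b+/+ was the one embryo of its group within the wild-type range. The log2 fold change of Hoxd10 was -0.39 (SE 0.102, FDR = 0.0519) in Kat6a-/-Kat6b+/+ relative to wild-type embryos, and without that embryo it was -0.49 (FDR = 0.0120). The difference passed the threshold in 4 of 11 other settings, in DESeq2 (FDR = 0.0271), in limma-voom (FDR = 0.0446), with no filter (FDR = 0.0332) and with 10 counts required in every embryo (FDR = 0.0495). Within litters it was -0.45 and -0.077, and the smaller value came from the litter of that embryo. Hoxd10 rose by 0.48 in Kat6a-/-Tg(Kat6b) relative to Kat6a-/-Kat6b+/+ embryos (SE 0.104, FDR = 0.00916), with overlap through the same embryo, and differed from wild type by 0.089, with a 95% interval from -0.13 to 0.31.

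Hoxc10, a gene of the lumbar spinal cord and hindlimb region, differed widely among embryos of 1 genotype. Its CPM was 23.9, 27.5, 19.7 and 16.8 in wild-type and 24.7, 22.4, 21.2 and 19.2 in Kat6a-/-Kat6b+/+ embryos. It was 25.2, 22.7, 21.6 and 22.6 in Kat6a+/+Tg(Kat6b) embryos and 27.3, 37.6, 25.5 and 35.6 in Kat6a-/-Tg(Kat6b) embryos. Replicates 2 and 4 of Kat6a-/-Tg(Kat6b), both female and from different litters, were far above all other embryos, and the remaining pair overlapped the wild-type range. Hoxc10 differed by -0.024 on the log2 scale between Kat6a-/-Kat6b+/+ and wild-type embryos (95% interval from -0.17 to 0.12), and within the 2 litters by -0.023 and -0.44 before any adjustment. It rose by 0.37 in Kat6a-/-Tg(Kat6b) relative to Kat6a-/-Kat6b+/+ embryos (SE 0.0686, FDR = 0.00302) and by 0.35 in Kat6a-/-Tg(Kat6b) relative to wild-type embryos (SE 0.0703, FDR = 0.0201). The first of these calls was lost with 1 surrogate variable (FDR = 0.0533) or with sex in their place (FDR = 0.0544), at a log2 fold change of 0.53. The fit adjusted for 2 surrogate variables, and the second took its lowest values, -0.48, -0.41 and -0.33, in replicate 2 of wild type and replicates 2 and 4 of Kat6a-/-Tg(Kat6b), the embryos in which Hoxc10 was highest in their genotypes. In the other 2 genotypes, too, Hoxc10 was highest in the embryo with the lowest value of this variable. Without surrogate variables the log2 fold change relative to wild type was 0.52, with an FDR of 0.147, and without replicate 2 or 4 of Kat6a-/-Tg(Kat6b) the FDR was 0.0657 or 0.0940.

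**Figure D2:**
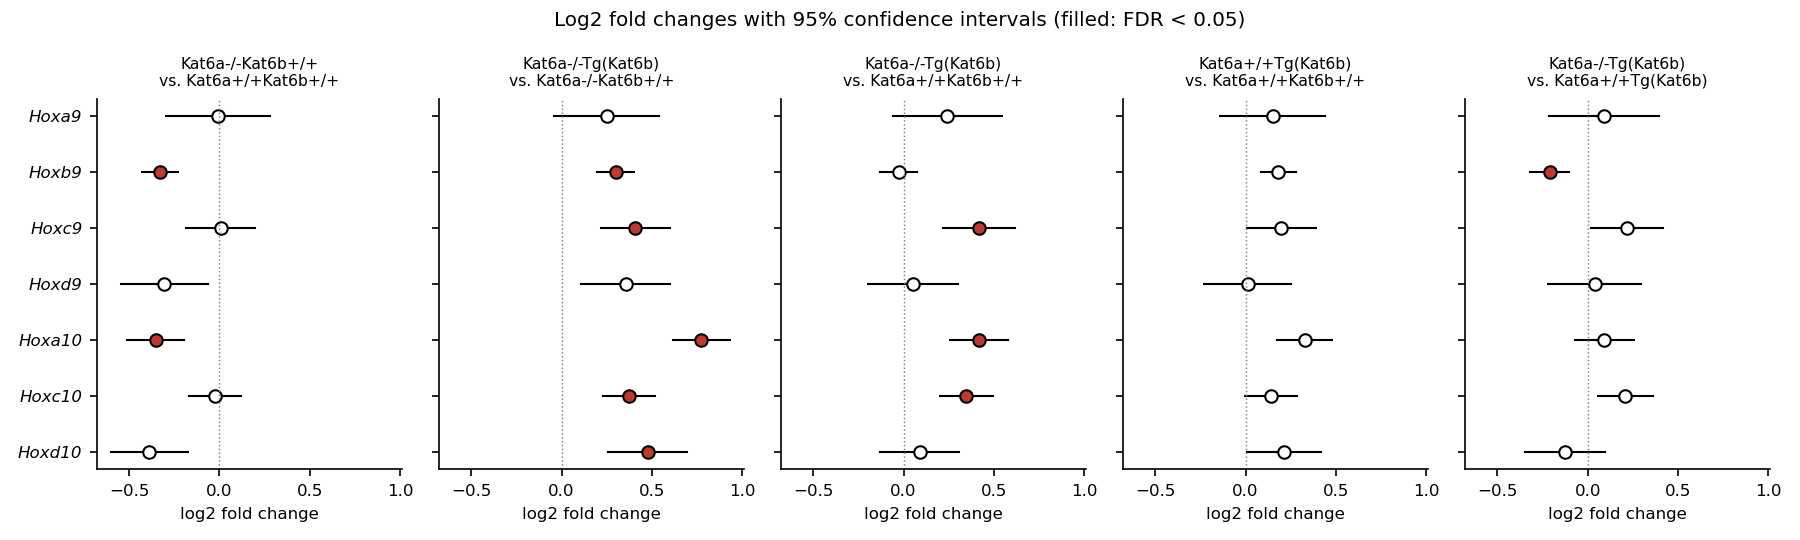
Log2 fold changes (horizontal axis) of the 7 genes in 5 comparisons of genotypes; points are edgeR estimates, lines 95% confidence intervals, and filled points had an FDR below 0.05. Hoxb9 and Hoxa10 were filled in the first comparison, and Hoxa10 had the largest value, 0.77, in the second.

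The first comparison asked what loss of KAT6A did to these genes. In Kat6a-/-Kat6b+/+ relative to wild-type embryos, 2 of the 7 genes fell, Hoxb9 and Hoxa10, and none rose. Over all tested genes 1.88% passed the test, 147 down and 148 up. The median log2 fold change of the 7 genes was -0.30, and that of all tested genes was 0.0033. The 95% intervals of Hoxc9 and Hoxc10 lay between -0.18 and 0.20 and held 0, as did the wider interval of Hoxa9. Whether Hoxa10 differed from its neighbour Hoxa9 was not tested. Among the other Hox genes 7 of 31 tested fell, namely Hoxb1, Hoxb3, Hoxd3, Hoxc4, Hoxd4, Hoxa6 and Hoxc6, with a median of -0.23. Of the 8 tested Hox genes of groups 11 to 13 none passed edgeR's test and 4 had an unadjusted p below 0.05, with a median of -0.31, while 15.2% of all tested genes had such a p. The levels of 6 markers of yolk sac and visceral endoderm were summed. The sum was between 8.91 and 15.5 CPM in Kat6a-/-Kat6b+/+ and between 13.7 and 54.9 CPM in wild-type embryos. Afp alone had a mean of 5.10 CPM in the former and 30.2 CPM in the latter. Whether this RNA came from attached membranes or from the embryo itself cannot be told apart. None of the 5 tested markers passed edgeR's test and 1 had an unadjusted p below 0.05, none of the 6 was at 0 in every embryo, and their part in the result was not tested.

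The second comparison asked how the transgene changed these genes on the Kat6a null background. In Kat6a-/-Tg(Kat6b) relative to Kat6a-/-Kat6b+/+ embryos, 5 of the 7 genes rose: Hoxb9, Hoxc9, Hoxa10, Hoxc10 and Hoxd10. Over all tested genes 7.14% passed, 532 up and 587 down. The fold changes of the 7 genes ran from 0.25 to 0.77 on the log2 scale with a median of 0.37, against a median of -0.0049 over all tested genes. Unadjusted p-values were below 0.05 for 6 of the 7 genes and for 23.2% of all tested genes. Among the other Hox genes 14 of 31 rose, with a median of 0.29, and one of these was Hoxa11, by 0.37 (FDR = 0.0329). The yolk sac and visceral endoderm markers summed to between 39.1 and 50.7 CPM in Kat6a-/-Tg(Kat6b) embryos, above every Kat6a-/-Kat6b+/+ embryo. Of all tested genes, 15.2% had no overlap between these groups. None of the 5 tested markers passed edgeR's test, and 2 had an unadjusted p below 0.05. In Kat6a+/+Tg(Kat6b) embryos the sum ran from 4.21 to 48.9 CPM. The part of these markers in the result was not tested.

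**Figure D3:**
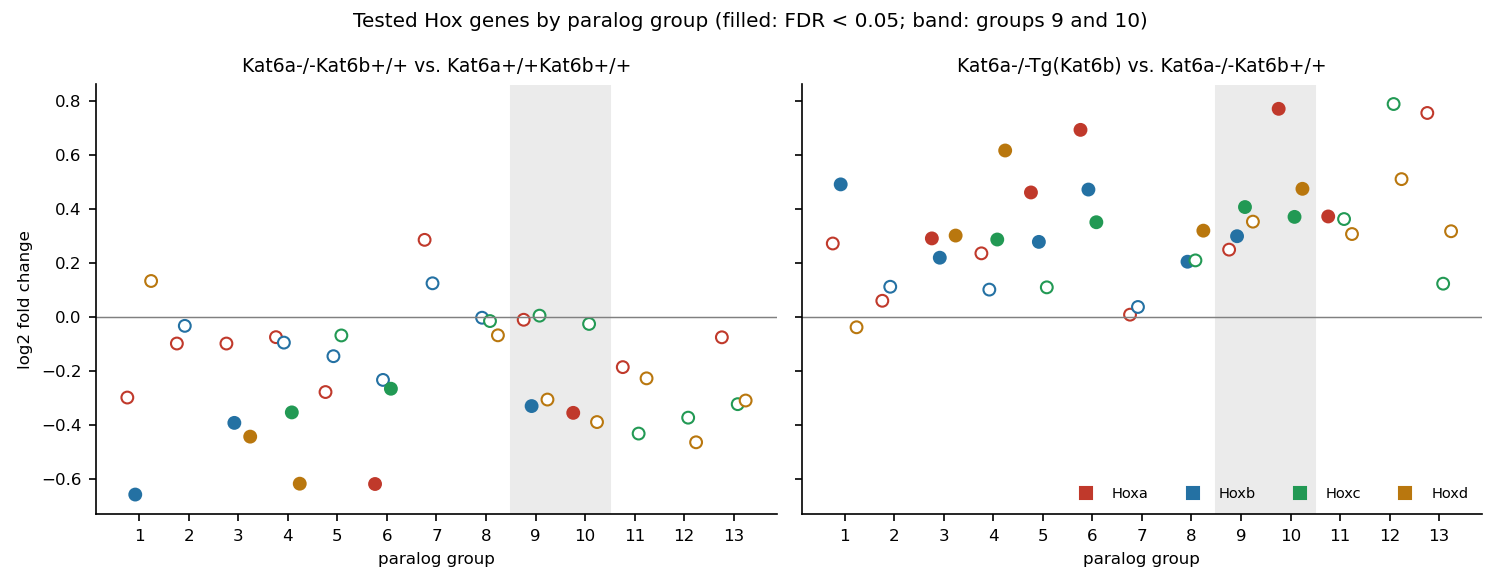
Log2 fold changes (vertical axis) of the 38 tested Hox genes by paralog group (horizontal axis), coloured by cluster, for loss of KAT6A (left) and for the transgene on the Kat6a null background (right); filled points had an FDR below 0.05 and the grey band marks groups 9 and 10. In the band, 2 genes were filled on the left, both below 0, and 5 on the right, all above 0.

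The third comparison asked how levels with the transgene and without KAT6A compared with wild type. In Kat6a-/-Tg(Kat6b) relative to wild-type embryos, 3 of the 7 genes rose, Hoxc9, Hoxa10 and Hoxc10, and none fell, while 0.67% of all tested genes passed. Hoxc9 and Hoxa10 did not overlap between the groups, like 7.1% of all tested genes, and Hoxc10 did. Hoxb9, Hoxd9 and Hoxd10 differed from wild type by -0.028, 0.050 and 0.089 on the log2 scale. None of the 31 other tested Hox genes passed edgeR's test in this comparison, 10 had an unadjusted p below 0.05, as had 12.7% of all tested genes, and their median was 0.083. Whether the 3 genes differ from other Hox genes was not tested. Both this comparison and that of Kat6a-/-Kat6b+/+ embryos used the same wild-type embryos, so their values are set side by side without a test of likeness. For Hoxa10 they were 0.42 and -0.35, for Hoxc9 0.42 and 0.0064, and for Hoxc10 0.35 and -0.024.

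The fourth comparison asked what the transgene did with KAT6A present. In Kat6a+/+Tg(Kat6b) relative to wild-type embryos, 0 of the 7 genes passed edgeR's test, and 0.14% of all tested genes did. Unadjusted p-values were below 0.05 for 4 of the 7 genes, Hoxb9, Hoxc9, Hoxa10 and Hoxd10, and for 11.5% of all tested genes, and DESeq2 called Hoxa10 (FDR = 0.0119). Fold changes of all 7 genes were positive, from 0.012 for Hoxd9, which turned negative under 3 other settings, to 0.33 for Hoxa10, and the other 31 tested Hox genes were also all positive, with a median of 0.18. None of these 31 passed edgeR's test and 14 had an unadjusted p below 0.05, to be read against the same 11.5%. Hoxb9, Hoxc9 and Hoxa10 did not overlap between the groups, like 4% of all tested genes. Hoxb9 had a log2 fold change of 0.18 (SE 0.0474, FDR = 0.138), and within litters its values were 0.22 and 0.17.

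The fifth comparison asked what loss of KAT6A did when the transgene was present. In Kat6a-/-Tg(Kat6b) relative to Kat6a+/+Tg(Kat6b) embryos, Hoxb9 alone fell, by 0.21 on the log2 scale (SE 0.0517, FDR = 0.0302), and none of the 7 rose. Over all tested genes 3.41% passed. This call was lost without replicate 1, 2 or 3 of Kat6a-/-Tg(Kat6b) or replicate 3 of Kat6a+/+Tg(Kat6b), with an FDR of 0.0554 to 0.132. Hoxc10 had a log2 fold change of 0.21 (SE 0.0729, FDR = 0.121), with no overlap between the groups, like 10.5% of all tested genes. Unadjusted p-values were below 0.05 for 3 of the 7 genes and for 18.9% of all tested genes. Among the other Hox genes Hoxb1, Hoxb3, Hoxd3 and Hoxd4 fell.

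The interaction measured whether the effect of the Kat6a null allele differed with and without the transgene. It passed edgeR's test for 0 of the 7 genes and for 0.153% of all tested genes. Unadjusted p-values were below 0.05 for Hoxa10 and Hoxc10, 2 of the 7 genes, and for 14.6% of all tested genes, and DESeq2 called Hoxa10 (FDR = 0.0264). The interaction of Hoxa10 was 0.45 on the log2 scale (SE 0.108, FDR = 0.107). Values of the 7 genes were all positive, from 0.10 to 0.45, and that of Hoxa9 turned negative in 2 fits that left out a single embryo. Of the 31 other tested Hox genes 26 were positive too, with a median of 0.14. None of these 31 passed edgeR's test and 5 had an unadjusted p below 0.05, to be read against the same 14.6%.

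Regulators of the trunk-to-tail progression were followed as a list of 13 genes. CDX proteins are homeodomain factors that activate central and posterior Hox genes. Cdx2 was at 8.56 ± 3.84 CPM (SD, n = 4) in wild-type and 6.58 ± 2.42 CPM in Kat6a-/-Kat6b+/+ embryos, while Kat6a+/+Tg(Kat6b) embryos had 10.8 ± 2.05 CPM and Kat6a-/-Tg(Kat6b) embryos 13.4 ± 5.42 CPM, with overlap between all genotypes. Cdx2 fell by 0.42 on the log2 scale without KAT6A (FDR = 0.0433), and rose by 0.66 with the transgene on the null background (FDR = 0.000829) and by 0.51 with the transgene on the Kat6a+/+ background (FDR = 0.0423). Within litters Cdx2 did not hold one direction without KAT6A, at 0.17 in one litter and -1.57 in the other, while with the transgene on the Kat6a+/+ background it was 0.62 and 0.82. Cdx4 rose by 0.60 on the null background (FDR = 0.0449), and Cdx1 passed in no comparison, with values from -0.13 to 0.062. Nr6a1, a nuclear receptor that acts in trunk elongation, fell by 0.18 without KAT6A (FDR = 0.0392) and rose by 0.20 with the transgene on the null background (FDR = 0.0134). T, the Brachyury gene of the tail bud, rose by 0.59 in Kat6a+/+Tg(Kat6b) relative to wild-type embryos (FDR = 0.0423). In all, 2 of the 13 genes fell without KAT6A, where 1.88% of all tested genes passed. With the transgene, 3 rose on the null background, where 7.14% of all tested genes passed. On the Kat6a+/+ background 2 rose with it, where 0.14% of all tested genes passed. None of the 13 passed edgeR's test in Kat6a-/-Tg(Kat6b) relative to wild-type embryos. There 1 had an unadjusted p below 0.05, against 12.7% of all tested genes.

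The level of Hoxc10 was set beside that of Cdx2 and Cdx4 among the embryos of each genotype. In Kat6a-/-Tg(Kat6b) embryos, Cdx2 was at 8.75, 18.2, 8.63 and 17.99 CPM and Cdx4 at 4.71, 13.6, 4.13 and 13.2 CPM, both highest in replicates 2 and 4, as was Hoxc10. In wild-type embryos Cdx2 was highest, at 14.1 CPM, in replicate 2, where Hoxc10 was highest too. In Kat6a-/-Kat6b+/+ embryos Cdx2, Cdx4 and Hoxc10 were all highest in replicate 1. Kat6a+/+Tg(Kat6b) embryos differed, as Hoxc10 and Cdx4 were highest in replicate 1 but Cdx2, at 13.2 CPM, in replicate 2. The part of this variation in the Hoxc10 result was not tested.

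The limb field and the cofactors of HOX proteins were read in the same way. Calls are to be read against the share of all tested genes that passed. It was 1.88% without KAT6A and 7.14% with the transgene on the null background. In Kat6a-/-Tg(Kat6b) embryos it was 0.67% relative to wild-type and 3.41% relative to Kat6a+/+Tg(Kat6b) embryos. Of 6 genes of the hindlimb and limb field, none passed edgeR's test without KAT6A, with a median log2 fold change of -0.32. There 2 had an unadjusted p below 0.05, against 15.2% of all tested genes. With the transgene on the null background 3 of the 6 rose. These were Tbx4 by 1.02 (FDR = 0.00924) and Pitx1 by 0.91 (FDR = 0.00468), which mark the hindlimb, and Tbx5 by 0.66 (FDR = 0.0245), which marks the forelimb. Of 9 genes for cofactors of HOX proteins, Pknox1 fell by 0.30 without KAT6A (FDR = 0.0108) and rose by 0.22 with the transgene on the null background (FDR = 0.0398). Meis1 rose by 0.14 in the latter comparison (FDR = 0.0419). Among the noncoding genes of the clusters, 5 of 8 were tested, and Hoxd3os1 alone passed, falling by 2.01 in Kat6a-/-Tg(Kat6b) relative to Kat6a+/+Tg(Kat6b) embryos (FDR = 0.0121), at means of 0.238 and 1.15 CPM. Of 8 tail bud markers, Nkx1-2 rose by 0.65 with the transgene on the null background (FDR = 0.00829), and T rose as given above. Among the 4 somite markers Meox1 fell by 0.21 with the transgene on the null background (FDR = 0.00397). There 2 of the 4 had positive values, and the median was 0.0089. Meox1 also fell by 0.19 in Kat6a-/-Tg(Kat6b) relative to wild-type embryos (FDR = 0.0239), where 1 of the 4 was positive. Relative to Kat6a+/+Tg(Kat6b) embryos it fell by 0.19 (FDR = 0.0158), and 0 of the 4 were positive. Among the 4 neural tube markers Sox1 and Sox2 fell by 0.23 and 0.21 in Kat6a-/-Tg(Kat6b) relative to Kat6a+/+Tg(Kat6b) embryos (FDR = 0.0149 and 0.00744). Of the 2 forebrain markers Six3 fell by 0.34 without KAT6A (FDR = 0.0269) and rose by 0.40 with the transgene on the null background (FDR = 0.00516), while none of 4 heart and 4 blood markers passed edgeR's test in any comparison, with at most 1 unadjusted p below 0.05. All of these markers were detected, while Prl8a2, a decidual marker, and Tpbpa, a trophoblast marker, were at 0 in every embryo. Of the other trophoblast markers, Plac1 was at 1.79 and Ascl2 at 0.338 CPM on average in wild-type embryos. Prl3d1, of the same list, and Prl3c1, a decidual marker, had no more than 2 counts in any embryo.

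Genes whose levels ran most like those of the 7 Hox genes were named by Pearson's r of log2 CPM over the 16 embryos, as a description in which all points share the 4 genotypes and the same libraries. The mean profile of the 7 genes was most like Pdcd7 (r = 0.94), Hoxa5 (0.91), Rpl28 (0.90), Gpc3 (0.90) and Lekr1 (0.89). Single genes had Hox genes among the 3 closest in 3 cases: Hoxc4 for Hoxb9 (r = 0.95), Hoxc8 for Hoxc9 (0.87) and Hoxb8 for Hoxa9 (0.76). Hoxd9 was closest to Tbx5 (0.93), Gata6os (0.93) and Hand2 (0.84), of which Tbx5 and Hand2 act in the limb field. Replicate 3 of Kat6a+/+Tg(Kat6b), with Hoxd9 at 16.6 CPM, entered these values, and r without it was not computed. Hoxc9 was also close to Hnrnpa3 (0.90) and Tbx4 (0.86). Hoxa10 was closest to Hsf2 (0.94), Rpl28 (0.89) and Sec62 (0.89), Hoxc10 to Pcbp2 (0.96), Slc2a3 (0.94) and Gprc5c (0.91), and Hoxd10 to Polh (0.94), Sertad4 (0.87) and C130021I20Rik (0.87). The remaining genes were Zfp946 (0.93) and Gulp1 (0.92) for Hoxb9, and Gm9222 (0.76) and H2-Q7 (0.76) for Hoxa9.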

How the data were processed

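Libraries of 16 single E9.5 embryos (TruSeq) were sequenced as 66-base pairs on a NextSeq instrument, and the authors aligned reads to mm39 with Rsubread. The submitters' processing notes also name bcl2fastq and featureCounts; annotation, strand setting and handling of shared reads are not given in the sources used here. The authors deposited unnormalized counts of reads per gene, with gene lengths, for 26411 genes.

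From these counts, edgeR 4.0.16 (R 4.3.3) kept genes by filterByExpr (minimum count 10, minimum total 15), leaving 15679, and scaled libraries by TMM (0.985 to 1.02). All 16 embryos entered 1 robust quasi-likelihood fit with 2 surrogate variables (sva 3.50.0), of which the first separated the sexes. The FDR is Benjamini-Hochberg adjusted across the 15679 genes (threshold 0.05). CPM and RPKM are TMM-scaled. The code was tested on simulated counts. Alternatives were no or 1 surrogate variable, sex as covariate, DESeq2 1.42.0 and its size factors, limma-voom (limma 3.58.1), other filters, replicate or litter as a block, fits of 2 genotypes and leaving out each embryo.

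The 7 genes, the gene lists and the tests were chosen with earlier results of these data known. All 7 genes are described in every comparison. From the lists, the genes past the threshold and Cdx1, Cdx2 and Cdx4 are named, except that Hox genes and the genes of cell type lists are mostly given as counts. A gene of the cofactor list is not reported here. The genes most like the 7 are the 5 nearest to their mean and the 3 nearest to each. Gene positions are from GENCODE vM39 and promoters from RefSeq. Proteins were not analysed here.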

Additional observations from a re-analysis of the deposited data

Results flagged for a closer look

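In 28 groups of 4 embryos (7 genes in 4 genotypes), 4 values lay further from the nearest embryo, relative to the range of their group, than Dixon's critical value at 95% allows. Chance marks about 1 in 20 groups. Hoxb9 was at 78.4 CPM in replicate 1 of Kat6a-/-Kat6b+/+, below the next embryo at 89.1. Hoxd9 was at 21.5 CPM in replicate 1 of wild type, below the next at 22.9, where the whole group spans a narrow range. Hoxd9 was at 16.6 CPM in replicate 3 of Kat6a+/+Tg(Kat6b), below the next at 24.3. Hoxd10 was at 11.0 CPM in replicate 3 of Kat6a-/-Kat6b+/+, above the next at 8.16. No reason for these values was tested.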

How the results depend on the processing

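Of the 1099 recomputed fold changes of the 7 genes, 1005 kept direction and side of the threshold, 37 lost and 18 gained a call, and 39 turned direction. Hoxb9, Hoxa10 and Hoxd10 in Kat6a-/-Tg(Kat6b) relative to Kat6a-/-Kat6b+/+ embryos and Hoxa10 in Kat6a-/-Tg(Kat6b) relative to wild-type embryos were called in all 26 alternatives, as was Hoxb9 in Kat6a-/-Kat6b+/+ relative to wild-type embryos in all 27. Replicate numbers did not pair the embryos (correlations of same-numbered embryos -0.255 to 0.215, median 0.0443). The replicate block changed 1 call, that of Hoxc9 in Kat6a-/-Tg(Kat6b) relative to wild-type embryos (FDR = 0.0702), leaving 2 genes called there, and left the other counts at 2, 5, 0, 1 and 0.

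The number of the 7 genes called in Kat6a-/-Tg(Kat6b) relative to wild-type embryos was 1, against 3, with no or 1 surrogate variable or sex instead, and in Kat6a-/-Tg(Kat6b) relative to Kat6a-/-Kat6b+/+ embryos it was 3, against 5, with 1 surrogate variable or sex. In the latter comparison it was 6 in DESeq2 and with only the 2 genotypes, where Hoxd9 was added (FDR = 0.0243 and 0.000281, log2 0.36 and 0.56). In Kat6a-/-Kat6b+/+ relative to wild-type embryos it was up to 3, against 2, with Hoxd10 added in 4 alternatives. DESeq2 called 1 gene (Hoxa10) in Kat6a+/+Tg(Kat6b) relative to wild-type embryos and 1 in the interaction, and requiring 10 counts in every embryo gave 1 (Hoxb9) in the former. In Kat6a-/-Tg(Kat6b) relative to Kat6a+/+Tg(Kat6b) embryos the number was 2 with no filter and 0 with only these genotypes, against 1. Litter as a block left 1 call (Hoxb9) in Kat6a-/-Kat6b+/+ relative to wild-type embryos, with fewer embryos and 18 genes called in all. The cause was not tested. Leaving out single embryos gave 1 to 4 calls in Kat6a-/-Kat6b+/+ relative to wild-type embryos, 4 to 6 in Kat6a-/-Tg(Kat6b) relative to Kat6a-/-Kat6b+/+, 1 to 3 in Kat6a-/-Tg(Kat6b) relative to wild-type, 0 to 2 in Kat6a-/-Tg(Kat6b) relative to Kat6a+/+Tg(Kat6b), and 0 in the other 2.

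Directions turned only for values near 0 that were never called. In Kat6a-/-Kat6b+/+ relative to wild-type embryos, Hoxc9 was -0.0088 without surrogate variables, -0.0082 with 1, -0.018 with no filter, -0.0083 with sex and -0.0011 with the replicate block, and Hoxc10 was 0.016 with no filter. There Hoxa9 was 0.025 in limma-voom, 0.021 with 10 counts in every embryo and 0.050 with litter as a block. In Kat6a+/+Tg(Kat6b) relative to wild-type embryos, Hoxd9 was -0.0062 in limma-voom, -0.0052 with 10 counts in every embryo and -0.0080 with the replicate block. Leaving out single embryos moved Hoxa9 from -0.12 to 0.12, Hoxc9 from -0.049 to 0.10 and Hoxc10 from -0.099 to 0.043 in the first comparison and Hoxd9 from -0.077 to 0.14 in Kat6a+/+Tg(Kat6b) relative to wild-type embryos. It moved Hoxb9 from -0.056 to 0.019 in Kat6a-/-Tg(Kat6b) relative to wild-type embryos, Hoxa9 from -0.037 to 0.17 and Hoxd9 from -0.064 to 0.15 in Kat6a-/-Tg(Kat6b) relative to Kat6a+/+Tg(Kat6b) embryos, and Hoxa9 from -0.037 to 0.22 in the interaction.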

Other observations

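Hoxc10 split by sex in wild type and, in the opposite direction, in both Kat6a null genotypes. In wild-type embryos the females were at 19.7 and 16.8 CPM and the males at 23.9 and 27.5. In Kat6a-/-Tg(Kat6b) embryos the females were at 37.6 and 35.6 and the males at 27.3 and 25.5. The Kat6a-/-Kat6b+/+ females were at 24.7 and 22.4 and the males at 21.2 and 19.2. In Kat6a+/+Tg(Kat6b) embryos the sexes overlapped. With 2 embryos of each sex per genotype, this difference was not tested. In wild type the males came from the litters of the Kat6a-/-Kat6b+/+ embryos and the females from those of the Kat6a+/+Tg(Kat6b) embryos. Sex and litter cannot be told apart there, nor in Kat6a-/-Kat6b+/+ embryos. The summed RPKM of Hoxa10, Hoxc10 and Hoxd10 divided by that of the group 9 genes was 0.370 ± 0.0237 in wild-type (SD, n = 4) and 0.399 ± 0.0532 in Kat6a-/-Kat6b+/+ embryos. Kat6a+/+Tg(Kat6b) embryos had a ratio of 0.377 ± 0.0232 and Kat6a-/-Tg(Kat6b) embryos one of 0.467 ± 0.0590. The lowest Kat6a-/-Tg(Kat6b) embryo, at 0.406, was above the highest wild-type embryo, at 0.393, and the highest Kat6a+/+Tg(Kat6b) embryo, at 0.394. Kat6a-/-Kat6b+/+ embryos reached 0.475 and overlapped the Kat6a-/-Tg(Kat6b) embryos. Between Kat6a-/-Tg(Kat6b) and wild-type embryos 7.1% of all tested genes had no overlap in CPM. The ratio was not tested.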
